A study of Mus musculus with 6 samples.

Results

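Costimulatory and inhibitory receptors are the surface proteins that raise or dampen the signal a T cell draws from its antigen receptor. The 10 described here are Cd28, Icos, Cd27, Cd2, Ctla4, Pdcd1, Btla, Cd5, Cd6 and Izumo1r. They were chosen by name from the 46983 genes in the count files, and all 10 passed the filter on low counts that left 12748 genes for testing. The RNA came from naive CD4 T cells, which have not yet met antigen, sorted from lymph nodes of male mice as live TCRb+, CD4+, CD44- cells of naive phenotype. Controls were 2 libraries of genotype Cmtr1 fl/fl CD4cre -, and 4 libraries of genotype Cmtr1 fl/fl CD4cre + are called Cmtr1 cKO. Both groups carry the floxed Cmtr1 alleles, so they differ in the CD4-Cre transgene, which acts throughout the alpha-beta T lineage from the thymus on. The comparison asks how the naive CD4 transcriptome depends on CMTR1, the enzyme that adds a methyl group to the ribose of the nucleotide next to the mRNA cap. Age and strain are not given in the sources used here. In all group values n = 2 controls and n = 4 Cmtr1 cKO, the labels do not say whether these came from separate mice, and p-values therefore measure the spread between these libraries.

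A naive T cell needs a second signal beside its antigen receptor to become fully activated, and CD28 is the classical source of it. CTLA4 binds the same B7 ligands more tightly and opposes CD28, while PD-1 (Pdcd1) and BTLA recruit phosphatases that blunt receptor signalling. CD5 and CD6 are scavenger-receptor-like proteins that sit close to the antigen receptor on resting T cells and tune its signal. CD2 is an adhesion receptor that binds CD48 in mice, CD27 is a member of the TNF receptor family that supports survival after priming, and ICOS helps follicular helper responses. Izumo1r encodes folate receptor 4, which is known for high levels on regulatory and anergic CD4 T cells.

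Gene counts per library ran from 9513874 (Cmtr1 cKO 3) to 11949838 (control 1). Cmtr1 cKO 3 stood apart in strand: it had 5.57 gene reads on the own strand for each read on the opposite strand, against 18.7 to 22.7 in the other libraries. Uniquely mapped reads that fell outside exons of their own strand are called the off-exon share below. They made up 37.2% and 34.0% in the controls against 52.3%, 51.6%, 46.7% and 38.0% in Cmtr1 cKO 1 to 4. The exact two-sided permutation test gave p = 0.133, where the smallest p that the 15 splits allow is 0.0667. Exon reads on the opposite strand count in this share. Cmtr1 cKO 3 had 1707028 opposite-strand gene reads against 490432 to 551462 in the other libraries, so its share holds more of them. Cmtr1 itself had 11.2 and 11.4 CPM (read counts normalised to library size, per 1000000) in the controls against 16.0, 19.8, 14.6 and 7.57 CPM in Cmtr1 cKO 1 to 4. Which exon was deleted is not given there, and a whole-gene count does not check the labels, so all directions below are those of the libraries as labelled. The cells carried the RNA of their label: Cd4 was at 755 to 864 CPM and Ccr7, a homing receptor of naive T cells, at 312 to 467 CPM in the 6 libraries.

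CMTR1 acts on the first nucleotide of a transcript, so the annotated start of each receptor gene is shown. The set of RefSeq starts used here (GRCm38.p6) held 6 of the 10 genes, with no entry for Cd28, Icos, Cd2 and Cd6. Each line below runs 5′ to 3′ on the gene's strand over 30 bases, 20 before the start base and 9 after it, with the start base in capitals.
Cd27, chr6:125237018-125237047, minus strand: agagacaaagaaaaccaaaaCagccacaac
Ctla4, chr1:60909005-60909034, plus strand: tcaggtgtcctgtgtgtgcaCtacacatat
Pdcd1, chr1:94052544-94052573, minus strand: ccgctacagacaactctgccTgagcagcgg
Btla, chr16:45224317-45224346, plus strand: aagaggaagtttgcccttacCtgacacgtg
Cd5, chr19:10738965-10738994, minus strand: ggcagtgacacaggcccacaCtgcctgctt
Izumo1r, chr9:14903758-14903787, minus strand: gcagtgggtggagcgccctcAgcccgctca
The start base was C in Cd27, Ctla4, Btla and Cd5, T in Pdcd1 and A in Izumo1r. Among all 32851 RefSeq starts in the same table, 34.4% have A, 16.3% C, 35.6% G and 13.7% T. These are annotated starts, not starts measured in these cells. They can differ from the GENCODE limits of the gene. The Ctla4 start base, chr1:60909025, lies inside its GENCODE gene, which begins at 60887000. That of Cd27, chr6:125237027, lies outside its GENCODE gene, which ends at 125237010.

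The 10 genes lie on 6 chromosomes, and 5 of them sit beside another member. Cd28 (chr1:60716800-60773359), Ctla4 (chr1:60887000-60915832) and Icos (chr1:60977927-61000320, all GRCm38, GENCODE vM21, plus strand) follow each other with no other tested protein-coding gene between them. Gaps of 113.6 kb and 62.1 kb separate them. Cd5 (chr19:10717116-10739002) and Cd6 (chr19:10789341-10830058), both on the minus strand, are 50.3 kb apart. The others are Pdcd1 (chr1:94038305-94052553), Cd27 (chr6:125232622-125237010), Cd2 (chr3:101275899-101287939), Btla (chr16:45224315-45257670) and Izumo1r (chr9:14885814-14903949). All are protein-coding. Exons of Cd27 share 129 of 2328 bases with the microRNA gene Mir8113 on the same strand, whereas no exon base of the other members lies in an exon of another gene.

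Per kilobase of exon, Cd2 was the most abundant of these mRNAs and Pdcd1 the least. Divided by exon length, the control means were 250.5 ± 16.6 CPM per kb (SD) for Cd2, 90.5 ± 4.6 for Cd5 and 82.0 ± 1.6 for Cd27. Btla followed at 53.1 ± 1.4, Cd28 at 50.35 ± 4.0, Cd6 at 46.0 ± 0.5 and Izumo1r at 43.8 ± 0.4 CPM per kb (SD). These 7 receptors stood above 93.1% (Izumo1r) to 98.85% (Cd2) of all genes tested on that scale. Icos at 13.3 ± 0.1, Ctla4 at 8.45 ± 2.02 and Pdcd1 at 4.48 ± 1.14 CPM per kb (SD) were lower, Pdcd1 standing above 40.2% of genes. In this order Btla and Cd28, and Cd28 and Cd6, overlapped over the 6 libraries, and every other pair of neighbours was separated. In Cmtr1 cKO the order of the means differed in that Cd6, at 57.5 ± 3.6 CPM per kb (SD), stood above Btla (51.2 ± 2.8) and Cd28 (50.6 ± 0.9).

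Of the 10 receptors, 1 was called between the genotypes, Cd6, which was higher in Cmtr1 cKO. The genotypes were compared by the quasi-likelihood test of edgeR, and a gene was called at a Benjamini-Hochberg adjusted p under 0.05 over all genes tested. By the same rule 11.4% of the 12748 genes were called, 4.66% higher and 6.77% lower, so 1 of 10 is near the background. At an unadjusted p under 0.05 there were 3 members, Cd6, Izumo1r and Cd2, beside 3933 of the 12748 genes tested. This count too is near the background. Log2 fold changes ran from -0.29 (Ctla4) to 0.32 (Cd6), with 6 positive and 4 negative and a median of 0.04, where the median of all genes tested was -0.00047. The middle range of the whole table, from its 25th to its 75th percentile, ran from -0.19 to 0.22, and 7 of the 10 receptors lay within that range. In 4 members the 2 groups did not overlap in CPM (3 higher, 1 lower), against 39% of all genes tested (18.2% higher, 20.8% lower).

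**Figure D1:**
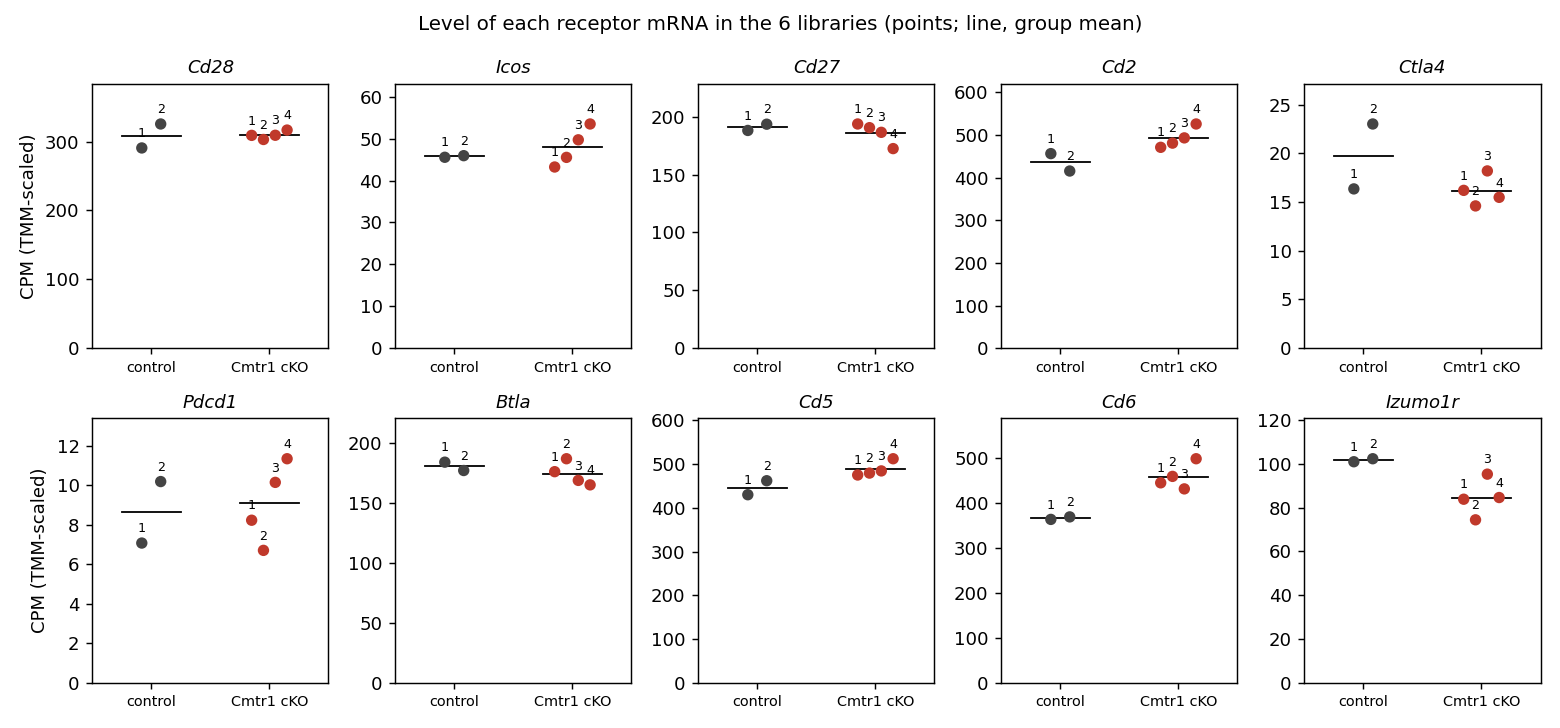
CPM of each receptor mRNA (vertical axis, from 0, TMM-scaled) in the 2 control libraries (grey) and the 4 Cmtr1 cKO libraries (red), with the replicate number beside each point and a line at the group mean. The groups are separate for Cd6, Cd5, Cd2 and Izumo1r and overlap for the other 6 receptors.

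Cd6 was at 363.5 and 369.0 CPM in the controls against 444.8, 459.1, 431.3 and 498.4 CPM in Cmtr1 cKO 1 to 4. Every Cmtr1 cKO library was above both controls, and Cmtr1 cKO 4 was the highest. The mean went from 366.3 ± 3.9 to 458.4 ± 29.0 CPM (SD), a log2 fold change of 0.32 ± 0.08 (SE; 95% interval 0.15 to 0.50), which is 25.2% higher (edgeR adjusted p = 0.0271, Benjamini-Hochberg). About 31.0% of all genes tested had a fold change at least this large in either direction. The values rest on 3800 to 5794 reads per library. The call ended in 4 of the 6 fits that left out 1 library. These were the fits lacking control 1 (0.32, adjusted p = 0.162), control 2 (0.35, 0.173), Cmtr1 cKO 2 (0.33, 0.0617) or Cmtr1 cKO 3 (0.37, 0.0524), while the fold change stayed between 0.28 and 0.44 in all 13 alternatives.

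Cd5, the neighbour of Cd6 and its closest relative among these receptors, was at 429.8 and 461.8 CPM in the controls against 474.9, 479.2, 484.2 and 512.1 CPM in Cmtr1 cKO 1 to 4. The groups did not overlap, but the difference was smaller, 0.13 ± 0.07 on the log2 scale (SE; 95% interval -0.03 to 0.29), and did not pass the test (edgeR adjusted p = 0.259, Benjamini-Hochberg). The ratio of Cd6 to Cd5 counts within a library needs no scaling between libraries. It was 0.846 and 0.799 in the controls against 0.937, 0.958, 0.891 and 0.973 in Cmtr1 cKO 1 to 4, with no overlap. The exact two-sided permutation test gave p = 0.0667, the smallest it can give here (0.156 adjusted over the 7 count ratios computed, all chosen after the values were seen). The ratio of Cd6 to Cd28 counts, 1.25 and 1.13 in the controls against 1.39 to 1.57 in Cmtr1 cKO, likewise did not overlap (exact permutation p = 0.0667, adjusted 0.156).

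On the other side of Cd6, 40.6 kb away, Tmem109 fell from 21.03 ± 0.06 to 14.63 ± 0.84 CPM (SD), a log2 fold change of -0.52 ± 0.11 (SE; adjusted p = 0.0151 by edgeR). The 2 called genes of this stretch of chromosome 19 thus differed in direction. The call of Tmem109 ended without control 1 (-0.52, adjusted p = 0.117), control 2 (-0.51, 0.147) or Cmtr1 cKO 3 (-0.49, 0.0543) and with the off-exon share as a covariate (-0.45, 0.112). Below Cd5, Vps37c had 10.9 CPM in both controls and 11.3 to 17.4 CPM in Cmtr1 cKO, and was not called (0.39 ± 0.17, SE; edgeR adjusted p = 0.146). None of the next tested protein-coding genes beside the other members was called by edgeR. They are Raph1 and Nrp2 at the ends of the Cd28 cluster, D2hgdh and Fam174a beside Pdcd1, Tapbpl and Tnfrsf1a beside Cd27, Ptgfrn and Igsf3 beside Cd2, Atg3 and Cd200 beside Btla, and Gpr83 and Panx1 beside Izumo1r. Gaps to the member ran from 0.76 kb (Tapbpl) to 1703 kb (Nrp2), and Fam174a lay 1261 kb from Pdcd1. Of these genes Raph1 (0.56), Fam174a (-0.30) and Panx1 (-0.20) had an unadjusted p under 0.05, as had 3933 of all 12748 genes tested.

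The genes whose centred log2 CPM over the 6 libraries lay closest to that of Cd6 were Rxrb, a retinoid X receptor gene, Mrps28, of the mitochondrial ribosome, and Utp18, a ribosome biogenesis factor. Their root-mean-square differences from Cd6 were 0.0266, 0.0295 and 0.0295 on the log2 scale. These genes were picked by their likeness to Cd6 in the same libraries, so their positive fold changes follow from that choice. Rxrb (0.29) and Utp18 (0.28) were called by edgeR with adjusted p = 0.0333 and 0.0383, and Mrps28 (0.31) was not (adjusted p = 0.148). Leaving out 1 library ended both calls in every case but the removal of Cmtr1 cKO 4, at 0.27 to 0.34 for Rxrb and 0.28 to 0.32 for Utp18. Unstranded counts also ended the calls of Rxrb (0.27, adjusted p = 0.0618) and Utp18 (0.27, 0.0631), and DESeq2 that of Utp18 (0.29, 0.0523).

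The costimulatory receptor Cd28 showed no detectable difference. It had 290.8 and 325.6 CPM in the controls against 309.1, 303.1, 309.2 and 316.8 CPM in Cmtr1 cKO 1 to 4, so that all Cmtr1 cKO libraries lay between the controls. The log2 fold change was 0.01 ± 0.07 (SE), and its 95% interval of -0.15 to 0.17 leaves room for changes of that size (edgeR adjusted p = 0.962). Cd27 was as close, at 188.2 and 193.7 CPM in the controls against 193.8, 190.6, 186.6 and 172.5 CPM in Cmtr1 cKO 1 to 4, with -0.04 ± 0.07 (SE; 95% interval -0.19 to 0.12). The lowest value was that of Cmtr1 cKO 4. Icos, a relative of Cd28 that is raised on activated T cells, had 45.6 and 45.9 CPM in the controls against 43.2, 45.5, 49.7 and 53.5 CPM in Cmtr1 cKO 1 to 4 (0.07 ± 0.10, SE; 95% interval -0.14 to 0.28). Both groups overlapped for Cd27 and for Icos, and neither passed the test (edgeR adjusted p = 0.743 and 0.657).

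Cd2 was at 456.5 and 415.7 CPM in the controls against 471.3, 481.1, 493.4 and 526.1 CPM in Cmtr1 cKO 1 to 4. All Cmtr1 cKO libraries were above both controls, by little in the case of Cmtr1 cKO 1. The log2 fold change was 0.18 ± 0.08 (SE; 95% interval 0.0035 to 0.35) and did not pass the test (edgeR adjusted p = 0.155, Benjamini-Hochberg). Cd48, the mouse ligand of CD2 that T cells also carry, had 91.0 to 102.4 CPM in Cmtr1 cKO and 101.3 and 90.7 CPM in the controls (0.04 ± 0.08, SE; edgeR adjusted p = 0.787). With the off-exon share as a covariate both Cd2 (0.27, adjusted p = 0.0211) and Cd5 (0.22, adjusted p = 0.0402) were called higher beside Cd6 (0.44, adjusted p = 0.000278). That fit called 5.22% of all genes, 2.51% higher. The off-exon share was higher in every Cmtr1 cKO library than in both controls, so this fit cannot fully separate it from genotype.

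**Figure D2:**
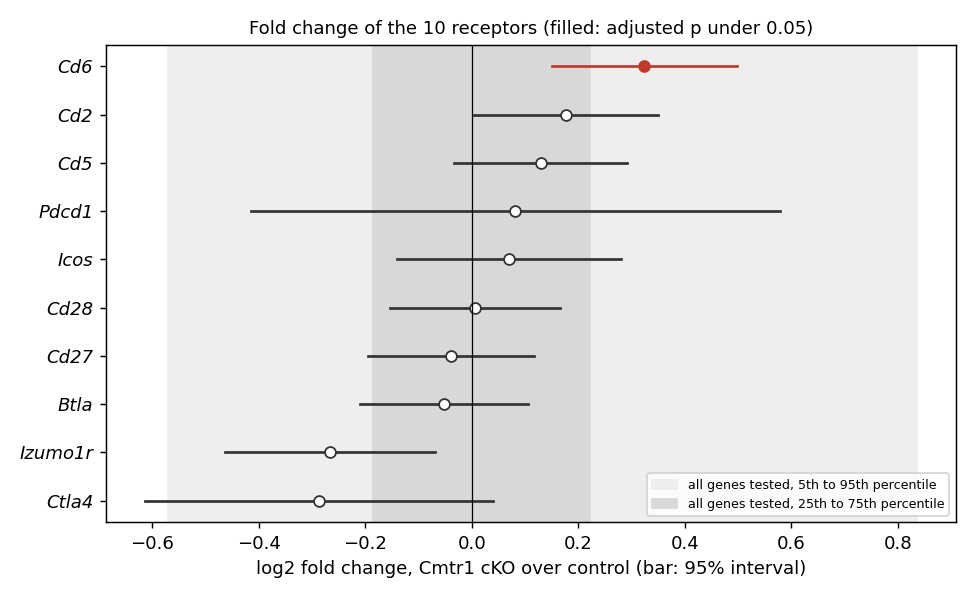
Log2 fold change of each receptor, Cmtr1 cKO over control (horizontal axis; point, estimate; bar, 95% interval), beside the central ranges of all 12748 genes tested (bands). Only Cd6 (filled, 0.32) passed the adjusted threshold, and the intervals of Cd6, Cd2 and Izumo1r exclude 0.

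Among the inhibitory receptors Btla differed little, at 183.7 and 176.8 CPM in the controls against 175.8, 186.6, 168.5 and 164.8 CPM in Cmtr1 cKO 1 to 4 (-0.05 ± 0.07, SE; 95% interval -0.21 to 0.11; edgeR adjusted p = 0.661). The groups overlapped, with Cmtr1 cKO 4 the lowest library and Cmtr1 cKO 2 the highest. Tnfrsf14, which encodes HVEM, the ligand of BTLA, had 39.2 and 39.6 CPM in the controls against 41.9 to 45.9 CPM in Cmtr1 cKO (0.15 ± 0.08, SE; edgeR adjusted p = 0.238). Pdcd1 was rare, with 74 to 132 reads per library. It had 7.08 and 10.2 CPM in the controls against 8.24, 6.71, 10.2 and 11.4 CPM in Cmtr1 cKO 1 to 4, and the wide interval of its log2 fold change (0.08, 95% interval -0.41 to 0.58) is the widest among the 10 receptors (edgeR adjusted p = 0.834).

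Ctla4 had the lowest fold change of the 10 receptors and was not called. It was at 16.4 and 23.0 CPM in the controls against 16.2, 14.6, 18.2 and 15.5 CPM in Cmtr1 cKO 1 to 4, from 161 to 237 reads. The controls were further apart than any pair of Cmtr1 cKO libraries, and Cmtr1 cKO 3 lay between them. The log2 fold change was -0.29 ± 0.15 (SE; 95% interval -0.61 to 0.04; edgeR adjusted p = 0.216, Benjamini-Hochberg). This value depended on both controls, being -0.01 without control 2 and -0.51 without control 1.

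Foxp3, the defining gene of regulatory T cells, was like Ctla4 higher in control 2 than in control 1. It had 14.5 and 23.6 CPM in the controls against 15.8, 12.6, 22.6 and 18.6 CPM in Cmtr1 cKO 1 to 4, so that control 2 and Cmtr1 cKO 3 were the highest for it. The ratio of Ctla4 to Foxp3 counts was 1.13 and 0.975 in the controls against 1.02, 1.16, 0.804 and 0.833 in Cmtr1 cKO 1 to 4 (exact two-sided permutation p = 0.6, 0.6 adjusted over the 7 ratios). The 7 regulatory T cell markers summed to 149.4 and 210.6 CPM in the controls and to 156.7 to 219.0 CPM in Cmtr1 cKO. Exact permutation of these sums gave p = 0.867, and 0 of the 7 markers were called by edgeR or by DESeq2. By edgeR 1 marker had an unadjusted p under 0.05, as had 3933 of all 12748 genes tested. The part of regulatory T cells in the level of Ctla4 was not tested. In these bulk libraries fewer cells of a type and less RNA per cell cannot be told apart.

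Izumo1r was at 101.0 and 102.4 CPM in the controls against 83.9, 74.5, 95.3 and 84.6 CPM in Cmtr1 cKO 1 to 4. All 4 Cmtr1 cKO libraries were below both controls, Cmtr1 cKO 3 being the nearest to them and Cmtr1 cKO 2 the farthest. The mean was 101.7 ± 1.0 CPM (SD) in the controls against 84.6 ± 8.5 CPM (SD) in Cmtr1 cKO, a log2 fold change of -0.27 ± 0.09 (SE; 95% interval -0.46 to -0.07). This did not pass the test over all genes (edgeR adjusted p = 0.0745, Benjamini-Hochberg; unadjusted p = 0.0122), nor did it without Cmtr1 cKO 3 (-0.31, adjusted p = 0.0687). Izumo1r was called lower without Cmtr1 cKO 4 (-0.27, adjusted p = 0.0268), where 30.8% of all genes were called, and without a filter on low counts (-0.26, adjusted p = 0.0333), where 9.11% were, while with the off-exon share as a covariate it had -0.19 (adjusted p = 0.394).

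The ratio of Izumo1r to Cd28 counts, 0.347 and 0.314 in the controls against 0.271, 0.246, 0.308 and 0.267 in Cmtr1 cKO 1 to 4, did not overlap between the groups (exact two-sided permutation p = 0.0667, the smallest possible; 0.156 adjusted over the 7 ratios). Relative to Foxp3, which had 139 to 243 reads, Izumo1r was at 6.96 and 4.34 in the controls against 4.21 to 5.91 in Cmtr1 cKO (exact permutation p = 0.533). The controls were further apart in this ratio than any pair of Cmtr1 cKO libraries, so it cannot show whether Izumo1r differed relative to Foxp3. Nt5e, the ectonucleotidase CD73 that marks anergic CD4 cells together with folate receptor 4, had 52.6 and 68.7 CPM in the controls against 56.5, 47.4, 71.2 and 54.2 CPM in Cmtr1 cKO 1 to 4 (-0.08, edgeR adjusted p = 0.742).

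**Figure D3:**
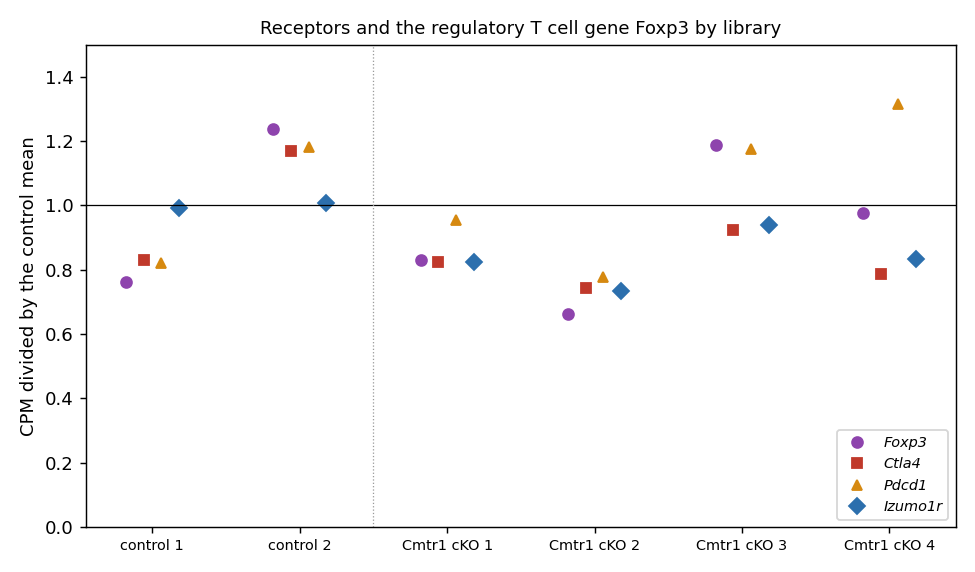
CPM of Foxp3, Ctla4, Pdcd1 and Izumo1r in each library, divided by the gene's control mean (vertical axis, from 0), with the controls left of the dotted line. Foxp3, Ctla4 and Pdcd1 are higher in control 2 than in control 1, whereas Izumo1r is at the same level in both controls and lower in all 4 Cmtr1 cKO libraries.

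All 13 other costimulatory receptors were tested, and 7.7% of them were called by edgeR, beside 11.4% of all genes tested. Of the 13 receptors 1 was higher and 0 lower. It was Slamf6, a homotypic receptor of the SLAM family, which rose from 142.1 ± 6.3 to 186.5 ± 20.7 CPM (SD), a log2 fold change of 0.39 ± 0.10 (SE; adjusted p = 0.0283). The list had a median of 0.09. Cd84 (0.19), Tnfrsf1b (-0.31), Tnfrsf18, which encodes GITR (0.12), Tnfrsf4, which encodes OX40 (0.09), and Cd226 (0.09) were not called. The call of Slamf6 ended without control 1 (0.36, adjusted p = 0.193), control 2 (0.45, 0.16), Cmtr1 cKO 1 (0.36, 0.0602) or Cmtr1 cKO 3 (0.35, 0.0756) and with the covariate (0.38, 0.338).

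Of 15 other inhibitory receptors 9 were tested, and 3 had an unadjusted p under 0.05 by edgeR, beside 3933 of all 12748 genes tested. Called by edgeR or by DESeq2 were 0 of the 9 receptors, with a median log2 fold change of -0.08. Vsir, which encodes VISTA and at 443.7 and 453.2 CPM in the controls was the most abundant of them, had 363.9 to 423.1 CPM in Cmtr1 cKO (-0.20 ± 0.08, SE; edgeR adjusted p = 0.119). Lair1, a collagen receptor, had -0.47 ± 0.16 (SE; adjusted p = 0.0696). Receptors of chronically stimulated T cells were near or under the limit of detection, with Havcr2 (TIM-3) and Tigit at no more than 4 and 3 reads in any library, and Lag3 at 1.27 to 2.24 CPM.

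A list of ligands and binding partners covered the 10 receptors and related TNF receptors, and 5 of its 14 genes did not pass the filter, among them Cd80 (at most 5 reads) and Cd70 (0 reads in all 6 libraries). Of the 9 tested 1 was called (11.1%), beside 11.4% of all genes tested. This gene, higher in Cmtr1 cKO, was Tnfsf4, which encodes the ligand of OX40 and binds none of the 10 receptors. It rose from 0.70 ± 0.25 to 2.53 ± 0.85 CPM (SD), a log2 fold change of 1.86 ± 0.44 (SE; adjusted p = 0.0238 by edgeR), from 6 and 9 reads in the controls against 18 to 40 in Cmtr1 cKO. Its call ended without control 1 (1.54, adjusted p = 0.181), control 2 (2.27, 0.127) or Cmtr1 cKO 1 (1.76, 0.0506). Cd274, which encodes PD-L1, had 35.8 and 35.1 CPM in the controls against 34.0 to 36.6 CPM in Cmtr1 cKO (-0.02 ± 0.08, SE).

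Of 36 signalling genes that act below these receptors 1 was higher and 4 lower by edgeR, with a median of -0.03. This is 13.9% of the list, beside 11.4% of all genes. The balance of directions depended on the setting, with 3 higher and 2 lower by DESeq2, 3 and 4 without a filter or with protein-coding genes alone, and 6 and 5 without Cmtr1 cKO 4. Cblb, the ubiquitin ligase that sets the need for CD28 costimulation, fell from 158.0 ± 1.8 to 120.4 ± 5.6 CPM (SD), a log2 fold change of -0.39 ± 0.07 (SE; adjusted p = 0.00565). Its call held in 11 of 13 alternatives and ended without control 1 (-0.39, adjusted p = 0.0715) or control 2 (-0.37, 0.101).

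A catalytic and a regulatory subunit of phosphoinositide 3-kinase, which CD28 and ICOS engage, were called in opposite directions. Pik3cd, the catalytic subunit p110-delta, rose from 725.5 ± 11.5 to 920.9 ± 49.5 CPM (SD; 0.34 ± 0.09, SE; edgeR adjusted p = 0.0309). Pik3r1, the regulatory subunit p85-alpha, fell from 339.9 ± 7.8 to 284.2 ± 5.9 CPM (SD; -0.26 ± 0.07, SE; edgeR adjusted p = 0.0319). The adaptor gene Grb2 (-0.33, adjusted p = 0.0486) and Bcl10 (-0.32, adjusted p = 0.0395), which acts in NF-kappaB signalling from the antigen receptor, also fell by edgeR. The calls of Pik3cd, Pik3r1, Grb2 and Bcl10 all ended when any 1 library other than Cmtr1 cKO 4 was left out (adjusted p from 0.0607 to 0.297), and with the covariate, where Pik3cd had 0.22, Pik3r1 -0.22, Grb2 -0.14 and Bcl10 -0.39. Grb2 was also not called with DESeq2's size factors (-0.33, adjusted p = 0.0518), by DESeq2 (-0.33, 0.0537) or with unstranded counts (-0.35, 0.0571), and Bcl10 was not called by DESeq2 (-0.32, 0.0682). Lck, Prkcq and Ptpn6, the phosphatase SHP-1, had -0.11, 0.04 and -0.01 and were not called.

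Regulators of receptor mRNA stability and trafficking numbered 6, and 0 were called by edgeR or by DESeq2. An unadjusted p under 0.05 by edgeR was met by 2 of the 6, beside 3933 of all 12748 genes tested. Rc3h1, which encodes roquin-1, a repressor of Icos mRNA, had -0.06 ± 0.08 (SE), and Lrba, which keeps CTLA4 from lysosomes, had 0.16 ± 0.08 (SE; edgeR adjusted p = 0.221).

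**Figure D4:**
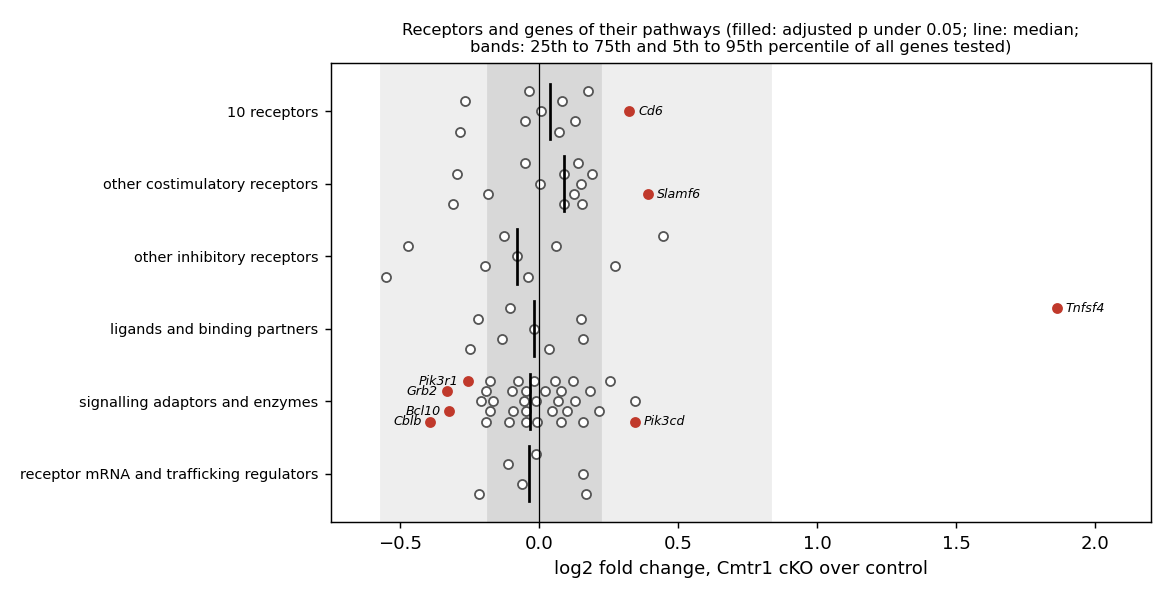
Log2 fold change (Cmtr1 cKO over control, horizontal axis) of every tested gene among the 10 receptors and 5 lists of related genes, with the median of each row as a line and the central ranges of all genes tested as bands. Filled and named points passed the adjusted threshold: 1 receptor, 1 of 13, 0 of 9, 1 of 9, 5 of 36 and 0 of 6 genes from top to bottom.

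The gate on TCRb, CD4 and CD44 would remove NK cells, B cells, myeloid cells and CD8 T cells. Most of their markers were low, Prf1 being the highest, but some moved with genotype. The 7 markers of NK or cytotoxic cells summed to 62.8 and 53.8 CPM in the controls and to 15.8 to 20.04 CPM in Cmtr1 cKO, where the groups did not overlap (exact two-sided permutation p = 0.0667, 0.3 adjusted over the 9 marker lists). Of these 7 markers 4 were tested, and 2 were called lower by edgeR. Prf1 had a log2 fold change of -1.95 (edgeR adjusted p = 4.6e-05) and Klrd1 of -1.91 (edgeR adjusted p = 0.000532). Over the 13 alternatives the fold change ran from -2.12 to -1.73 for Prf1 and from -2.02 to -1.74 for Klrd1. Ncr1 and Klrb1c had at most 4 and 3 reads in any library. Cd8a and Cd8b1 summed to 28.7 and 23.6 CPM in the controls against 17.0 to 21.3 CPM in Cmtr1 cKO (exact permutation p = 0.0667, adjusted 0.3). The 6 B cell markers summed to 33.0 and 42.8 CPM in the controls against 21.4 to 42.4 CPM in Cmtr1 cKO, and the 7 myeloid or dendritic markers to 19.8 and 6.12 CPM and to 4.39 to 7.78 CPM. These groups overlapped (exact permutation p = 0.333 and 0.2). The part of other cell types in the receptor values was not tested.

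Markers of activated or memory T cells, in which several of the 10 receptors are known to be raised, summed to 233.8 and 258.8 CPM in the controls and to 188.1 to 272.3 CPM in Cmtr1 cKO (exact permutation p = 0.467). Of 7 tested 1 was called by edgeR (14.3%), beside 11.4% of all genes tested. It was Cd44, which fell from 40.4 ± 4.0 to 28.6 ± 2.9 CPM (SD), a log2 fold change of -0.50 (edgeR adjusted p = 0.016). Cd44 was not called without control 1 (-0.39) or control 2 (-0.58). Of the follicular helper markers Cxcr5 fell from 8.70 ± 3.77 to 4.17 ± 0.85 CPM (SD; -1.05, edgeR adjusted p = 0.0305), while Bcl6 had 0.09 and Il4 had 0 reads in all 6 libraries. Without control 2 Cxcr5 had -0.52 (adjusted p = 0.395), and its call also ended without Cmtr1 cKO 2 (-0.92, 0.067) or 3 (-1.03, 0.0821), with the covariate (-0.70, 0.341) and with unstranded counts (-0.86, 0.0649). The 8 markers of CD4 T cells had 3 positive and 5 negative fold changes, and their sums overlapped between the groups (exact permutation p = 0.467). Thy1 of that list, which encodes the surface glycoprotein CD90, fell from 422.0 ± 15.7 to 291.1 ± 14.1 CPM (SD). Its log2 fold change was -0.54 (edgeR adjusted p = 0.0013), and it was called in all 13 alternatives. The 8 naive T cell markers had 2 positive and 6 negative fold changes and overlapping sums (exact permutation p = 0.667). Of these 8 markers 1 was called (12.5%, beside 11.4% of all genes tested). That was Ccr7, a lymph node homing receptor, which fell by 0.36 on the log2 scale (edgeR adjusted p = 0.0433). Its call ended when any 1 library other than Cmtr1 cKO 4 was left out (-0.36 to -0.30). It also ended with the covariate (-0.10, adjusted p = 0.525) and with unstranded counts (-0.37, 0.0582).

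**Figure D5:**
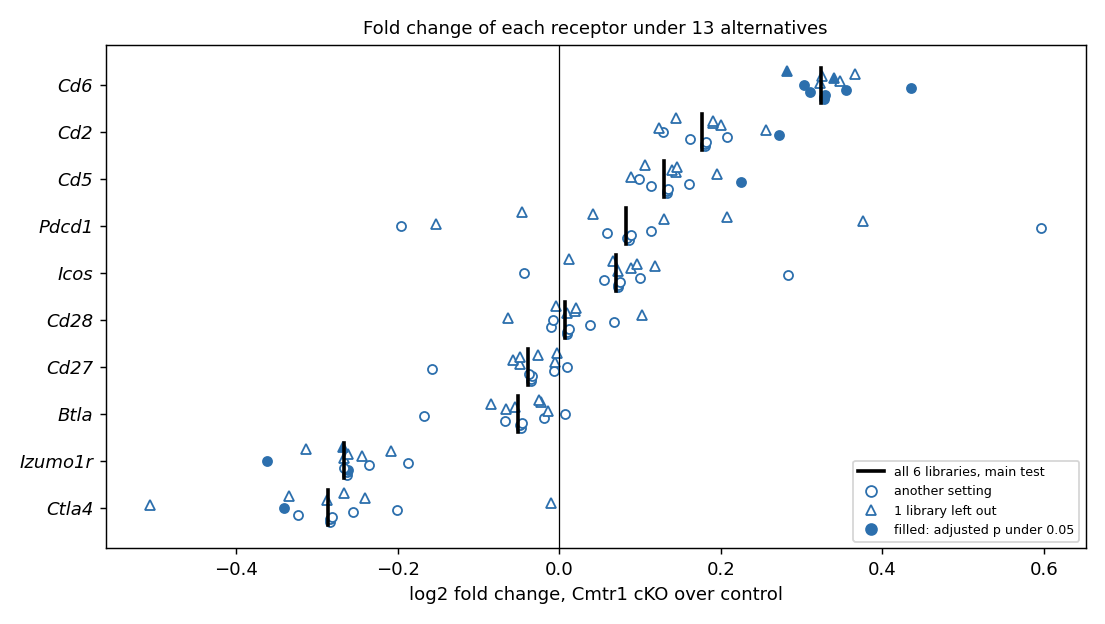
Log2 fold change of each receptor (Cmtr1 cKO over control, horizontal axis) with all 6 libraries (black line) and under 13 alternatives: 6 with 1 library left out (triangles) and 7 other settings (circles), filled where the adjusted p was under 0.05. Cd6 lies between 0.28 and 0.44 and was called in 9 of 13. Izumo1r lies between -0.36 and -0.19 and was called in 3. Cd2, Cd5 and Ctla4 were called in 1 each. The Ctla4 call, and an Izumo1r call, came from the fit with a replicate block, where 4842 of 12748 genes were called.

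The plot of fold changes under each alternative shows which receptors kept their direction. Cd6, Cd2 and Cd5 were positive, and Izumo1r and Ctla4 negative, in all 13 alternatives. Pdcd1, with the fewest reads, was the most variable, from -0.20 to 0.60, and Cd28, Icos, Cd27 and Btla each took both signs with fold changes of at most 0.28 in size.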

How the data were processed

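Ribosomal-RNA-depleted RNA of naive CD4 T cells was sequenced in 6 libraries (2 controls, 4 Cmtr1 cKO). The authors deposited raw read counts per gene, made with STAR 2.5.2b on the mouse genome mm10 (GRCm38), per the submitters' processing notes, which also name edgeR; no annotation for the counting step is named in the sources used here. Column 4 of each count file holds reads on the gene's own strand and was used throughout. Rows that name no gene took 52.1% to 62.0% of the reads in that column and stayed out of library sizes and tests. Symbols, exon lengths and coordinates came from GENCODE vM21, which matched 46488 of 46983 identifiers (98.9%).

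Counts were filtered with filterByExpr, scaled by TMM and fitted with edgeR 4.0.16 (robust quasi-likelihood test, R 4.3.3), with Benjamini-Hochberg adjustment over all genes tested. CPM are counts per 1000000 of the scaled library size. The fit was tested on simulated data with the libraries' own means and sizes and the same common dispersion for all genes. It called 37 of 98 genes given a log2 change of 0.5 and 87 of 98 given a change of 1. Real genes differ in dispersion, so these rates need not hold for each of them. Marker sums and count ratios were compared by exact two-sided permutation over the 15 splits. The alternatives were DESeq2's size factors, DESeq2 1.42.0, no low-count filter, unstranded counts, protein-coding genes alone, the off-exon share of reads as a covariate, a replicate block and each library left out.

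The members and lists were chosen with earlier results of these data known. Named were all members, called genes of each list (at most 5 per pathway list), defining markers, the next tested protein-coding genes beside a member and the 3 genes most like a called member. Other list genes and the count ratios were picked after their values were seen. Lilrb4a was not matched to a row and was not analysed here. Some list genes are not reported here by name.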

Additional observations from a re-analysis of the deposited data

Results flagged for a closer look

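The ratio of Cd6 to Cd2 counts in Cmtr1 cKO 3 lay far from its group. It was 0.874 there, while the other Cmtr1 cKO libraries had 0.944, 0.954 and 0.947. The gap to the nearest library was 0.870 of the group's range, above Dixon's 95% critical value for 4 libraries. Among 27 such groups of 4 this was the 1 that passed, and chance alone would flag about 5% of groups. The controls had 0.796 and 0.888, so that Cmtr1 cKO 3 fell between them (exact two-sided permutation p = 0.133 for the genotypes, 0.187 adjusted over the 7 ratios).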

How the results depend on the processing

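Scaling by DESeq2's size factors, DESeq2 itself, unstranded counts and protein-coding genes alone kept the number of genes called within 1.5 times of 1457 (1269 to 1474) and the number of receptors called at 1. Without a filter on low counts 2272 genes were called, 2 of them receptors, 2 in the costimulatory list and 1 in the inhibitory list. With the off-exon share as a covariate 666 genes were called, 3 of them receptors, 1 in the inhibitory list, 2 among ligands and 2 among signalling genes, and Foxp3 had 0.26. With unstranded counts Foxp3 had 0.16 and Cd28 -0.0099. Leaving out 1 library gave 193 (without control 2) to 3880 genes (without Cmtr1 cKO 4), 0 to 2 receptors, 0 to 4 costimulatory, 0 to 2 inhibitory, 0 to 1 ligand, 0 to 11 signalling and 0 to 3 regulator genes; a lone control was assumed to vary like the other group. No receptor was called without control 1, control 2, Cmtr1 cKO 2 or Cmtr1 cKO 3. Fold changes without 1 library ran from -0.063 to 0.103 for Cd28, from -0.15 to 0.38 for Pdcd1 and from -0.43 to 0.27 for Foxp3. The log2 ratio of marker sums ran from -0.20 to 0.30 for regulatory T cells, from -0.29 to 0.0496 for follicular helper cells and from -1.66 to 0.0304 for myeloid or dendritic cells. Median fold changes of all genes stayed within 0.03 of 0 in every setting. The causes of these shifts were not tested.

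The labels give numbers 1 and 2 to both genotypes but name no shared animal or batch. Deviations of same-numbered libraries correlated at 0.13 (number 1) and -0.13 (number 2). With 2 controls their deviations mirror each other, so this check cannot settle a pairing, and the numbers were taken as names. With the replicate block 4842 of 12748 genes were called, 3 of them receptors (Cd6 0.30, Ctla4 -0.34, Izumo1r -0.36). Among the lists were 4 costimulatory, 1 inhibitory, 15 signalling and 3 regulator genes. Numbers 3 and 4 occur in Cmtr1 cKO alone, so the genotype difference of this fit rests on the libraries numbered 1 and 2. Foxp3 was called lower in this fit too (-0.40, adjusted p = 0.0193). Fold changes of receptors not called took the other sign at -0.0078 for Cd28, -0.044 for Icos, 0.00995 for Cd27, -0.20 for Pdcd1 and 0.0070 for Btla in this blocked fit.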

Other observations

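Reads on the strand opposite to a receptor gene were few, at most 4.33% of the gene's own reads, although over all genes Cmtr1 cKO 3 had 1707028 such reads and the other libraries 490432 to 551462. The highest share was that of Cd27, with 54 and 40 such reads in the controls and 88, 91, 52 and 59 in Cmtr1 cKO 1 to 4, and Izumo1r followed with 13 and 16 against 22, 18, 33 and 14.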
